A study of Mus musculus with 4 samples.

Results

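The Halo-Sox2D-only distal peaks are places where a shortened Sox2, and neither full-length form (Halo-Sox2 or endogenous Sox2), was called on the genome away from the ends of genes. They were selected on the called positions of the Halo-Sox2D, Halo-Sox2 and endogenous Sox2 peaks. The Halo-Sox2M list was used only to leave out bins dense in peaks, as given below. A peak was kept when no centre of an endogenous Sox2 or Halo-Sox2 peak lay within 500 bp and when its own centre lay more than 1 kb from both ends of every protein-coding gene. Mitochondrial DNA, unplaced and random sequence and 11 bins of 100 kb that held 15 or more peaks in any list were left out first. Of 13833 Halo-Sox2D peaks, 13523 lay on the chromosomes used, 13241 of those lay outside the dense bins, and 10981 had no other full-length centre within reach. Of these, 8422 also lay away from gene ends, which is 60.9% of the Halo-Sox2D list and part of 29255 peaks in all 4 lists.

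The libraries are ChIP-exo maps from the D3 line of mouse embryonic stem cells, 1 library for each protein. Halo-Sox2D is a HaloTag fusion labelled as amino acids 1 to 120 of Sox2, captured on HaloLink resin, and its list is the longest. Halo-Sox2M is a HaloTag fusion of Sox2 labelled M47G, F50 and M51G, for which the label gives no replacing residue at F50, captured on the same resin, with 1711 peaks. Halo-Sox2 is the HaloTag fusion without those changes, captured on the same resin, with 6558 peaks. Endogenous Sox2 was captured with an antibody against Sox2 and gave 7153 peaks. How the fusions were expressed, at what level, and whether those cells also made endogenous Sox2 is not given in the sources used here, and neither an input nor a resin control was used here. The lists hold coordinates alone, so the identity of the cells could not be checked against expressed markers and the number of reads behind a peak is unknown.

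Sox2 belongs to the SOX family of transcription factors and is needed to keep embryonic stem cells pluripotent. Its HMG box, which lies in the first part of the protein and is kept in Halo-Sox2D, contacts the minor groove of DNA and bends it, while the later part of the protein holds the transactivation region. In stem cells Sox2 is best known for binding next to Oct4, the product of Pou5f1, on enhancers. In ChIP-exo the captured DNA is digested by an exonuclease until a crosslinked protein stops it, and a protein can leave a pair of closely spaced borders.

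With 1 library per protein no test between proteins was possible and no p-value is given. Shares carry 95% Wilson intervals, which cover counting error only and treat peaks as independent, although neighbouring peaks are not. Differences in list length, depth and calling threshold cannot be told apart from differences in binding. Absence of a full-length peak within 500 bp is the rule and not a result, and it also depends on how deep the other lists go. At the borders of the rule, 45 distal peaks had a full-length centre in the first 100 bp beyond the 500 bp limit, and 37 otherwise suitable peaks had one in the last 100 bp inside it. Likewise 90 distal peaks lay in the first 100 bp beyond the 1 kb limit from a gene end, and 89 peaks in the last 100 bp inside it.

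Sequence could be read around the distal peaks that lay at an annotated start of transcription. The RefSeq start windows of GRCm38.p6 run from 250 bases before a start to 50 after it, and 218 distal peaks fell into 220 of 32850 such windows, since windows overlap. These starts belong to long non-coding RNAs or lie inside the outer limits of a protein-coding gene, because the rule removed peaks near those limits. Printed first are 51-base slices centred on a distal peak that hold CATTGT, a core recognised by SOX proteins, or its other-strand form ACAATG, shown in capitals. They were picked because the core lies within 5 bases of the peak centre and the slice ends before the start. Each is given 5′ to 3′ on the strand of the gene.
Gm38728, lncRNA, chr5:140518172-140518222, minus strand: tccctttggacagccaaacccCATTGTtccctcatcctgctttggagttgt
Tpm3, a tropomyosin, chr3:90079357-90079407, plus strand: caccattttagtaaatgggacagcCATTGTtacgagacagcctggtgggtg
Gm3143, lncRNA, chr3:34716715-34716765, minus strand: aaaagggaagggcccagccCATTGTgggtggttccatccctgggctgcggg
Snapc3, a subunit of the complex that starts small nuclear RNA transcription, chr4:83417546-83417596, plus strand: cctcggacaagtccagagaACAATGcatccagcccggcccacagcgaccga
Ddc, the DOPA decarboxylase, chr11:11890531-11890581, minus strand: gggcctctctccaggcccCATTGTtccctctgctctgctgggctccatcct

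The next set shows whole upstream windows of 250 bases that hold more than 1 distal peak, with the called peaks in capitals, to show how narrow and how close the calls are. The Clcn4 window holds 3 distal peaks, and the middle one covers ACAATG. The Gm46609 window holds a pair of overlapping calls on a CTTTGT, the other SOX core searched. The Per1 and Smarcal1 windows hold a pair of separate calls each and neither SOX core.
Clcn4, a chloride and proton exchanger, chr7:7299558-7299807, minus strand: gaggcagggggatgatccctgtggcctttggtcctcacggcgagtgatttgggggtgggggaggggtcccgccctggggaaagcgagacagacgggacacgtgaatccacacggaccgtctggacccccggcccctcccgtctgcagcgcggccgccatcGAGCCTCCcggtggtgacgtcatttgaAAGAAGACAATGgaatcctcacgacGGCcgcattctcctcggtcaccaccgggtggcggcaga
Gm46609, lncRNA, chr17:87613544-87613793, minus strand: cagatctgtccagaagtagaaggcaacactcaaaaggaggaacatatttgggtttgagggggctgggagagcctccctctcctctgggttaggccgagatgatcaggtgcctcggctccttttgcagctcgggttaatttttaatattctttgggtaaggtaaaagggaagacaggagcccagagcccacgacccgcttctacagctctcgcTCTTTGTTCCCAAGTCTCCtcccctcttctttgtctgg
Per1, a repressor of the circadian clock, chr11:69098699-69098948, plus strand: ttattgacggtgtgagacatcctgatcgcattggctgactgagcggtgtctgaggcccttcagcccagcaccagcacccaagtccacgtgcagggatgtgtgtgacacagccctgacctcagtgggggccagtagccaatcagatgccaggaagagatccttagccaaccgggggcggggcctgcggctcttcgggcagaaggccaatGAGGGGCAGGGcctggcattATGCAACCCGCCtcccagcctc
Smarcal1, an annealing helicase, chr1:72583001-72583250, plus strand: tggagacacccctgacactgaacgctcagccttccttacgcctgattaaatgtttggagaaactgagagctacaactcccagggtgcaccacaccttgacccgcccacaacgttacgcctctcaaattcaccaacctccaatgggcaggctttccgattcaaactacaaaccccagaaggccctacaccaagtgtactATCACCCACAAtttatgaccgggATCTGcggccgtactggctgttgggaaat

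At these starts the SOX core sat at the called position more often than elsewhere in the same windows. Of 190 slices of 51 bases centred on a distal peak, 16 held CATTGT on either strand, a share of 8.42% (5.25% to 13.2%), against 2.37% of all 51-base slices of the 220 windows with a distal peak. In all windows away from coding gene ends, 2.62% of slices held it. CTTTGT, counted the same way, was in 17 slices or 8.95% (5.66% to 13.9%), against 3.93% of slices of the same windows and 4.00% of slices of all windows away from gene ends. In 9 of the 16 CATTGT slices the core overlapped the peak itself, and in 11 its middle lay within 10 bp of the peak centre. Of the 16, 2 are neighbouring Clcn4 slices that hold the same copy.

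The octamer letters ATGCAAA, recognised by POU factors such as Oct4, were in 0 of the 190 slices, which allows a share of up to 1.58% at 3 counts (1.98% as the Wilson limit), against 0.840% of slices of the same windows, so a difference was not detectable at this number. Around endogenous Sox2 peaks at starts, taken whole without the distal rule, 13 of 149 slices or 8.72% (5.17% to 14.4%) held ATGCAAA, and 25 or 16.8% (11.6% to 23.6%) held CATTGT. Around Halo-Sox2 peaks at starts, taken in the same way, 5 of 196 slices or 2.55% (1.09% to 5.83%) held ATGCAAA, and 13 or 6.63% (3.92% to 11.0%) held CATTGT. The CATTGT intervals of both full-length forms overlap that of the distal peaks, which does not show that the shares are alike. Around Halo-Sox2D peaks that shared a place, at any distance from gene ends, 18 of 138 slices or 13.04% (8.41% to 19.7%) held CATTGT. Of the same slices, 3 or 2.17% (0.742% to 6.20%) held ATGCAAA. Around Halo-Sox2D-only peaks at gene ends 80 of 938 slices or 8.53% (6.91% to 10.5%) held CATTGT, a share whose interval overlaps that of the distal peaks. ATGCAAA was in 10 of these 938 slices, 1.07% (0.580% to 1.95%). Among the ATGCAAA intervals of these sets, only that of endogenous Sox2 did not overlap the interval of the distal peaks. GGGCGG, the GC-box recognised by Sp1 and related factors, was in 14.7% (10.4% to 20.5%) of the slices centred on distal peaks, against 15.6% of slices of the same windows. Over whole windows GGGCGG was more frequent with a distal peak, at 55.9% (49.3% to 62.3%) of the 220 windows. The background was 18.5% of all windows away from gene ends and 35.7% of all 32850 windows. With a Halo-Sox2D-only peak at gene ends GGGCGG was in 69.6% (66.9% to 72.3%). Away from gene ends it was in 41.0% (27.1% to 56.6%) with a shared Halo-Sox2D peak and 39.4% (24.7% to 56.3%) with Halo-Sox2 alone, and both intervals overlap that of the distal peaks. With endogenous Sox2 alone it was in 14.8% (5.92% to 32.5%). CATTGT over whole windows was not more frequent with a distal peak, at 13.2% (9.34% to 18.3%), against 15.3% of windows away from gene ends. Away from gene ends it was in 14 of 39 windows with a shared Halo-Sox2D peak, 35.9% (22.7% to 51.6%). With endogenous Sox2 alone it was in 8 of 27, 29.6% (15.9% to 48.5%), and with Halo-Sox2 alone in 2 of 33, 6.06% (1.68% to 19.6%). Only the interval of the shared Halo-Sox2D peaks did not overlap that of the distal peaks. A match is a string of letters and not a measured site, and the 4 strings were counted on both strands.

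The windows with a distal peak were rich in G and C. Their median was 57.5% GC with 14 CpG, against 49% GC with 4 CpG over the windows away from gene ends. Windows with a Halo-Sox2D-only peak at gene ends had 62% GC with 23 CpG. Away from gene ends the medians were 54% with 8 CpG for shared Halo-Sox2D peaks and 51% with 8 CpG for Halo-Sox2 alone. Endogenous Sox2 alone had 50% with 6 CpG. Among the windows away from gene ends, 218 of 13968 or 1.56% held a distal peak, and the share changed with base composition. It was 0 of 1643 windows under 40% GC, which allows up to 0.183% at 3 counts (0.233% as the Wilson limit). It was 0.416% (0.282% to 0.613%) at 40% to 50% GC, 2.30% (1.91% to 2.78%) at 50% to 60% GC, 5.70% (4.55% to 7.13%) at 60% to 70% GC and 3.25% (2.07% to 5.09%) at 70% GC and above. The share in the class of highest GC was lower than in the class before it, but the intervals of these classes overlap. Protein-coding starts held a distal peak in 3.25% of 3880 windows (2.73% to 3.85%), and lncRNA starts in 0.912% of 10088 windows (0.744% to 1.12%). These coding windows also had the higher median GC, at 54.7% against 47.7% for lncRNA windows, and the part of GC in the difference was not tested.

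Distal peaks gathered at annotated starts although the outer gene ends had been removed. Of 8097 distal peaks on chromosomes with annotated starts, 416 or 5.14% (4.68% to 5.64%) lay within 500 bp of one, against 0.513% of the base pairs that met the same rule. The share was 3.49% (2.75% to 4.41%) for Halo-Sox2D peaks that shared a place with a full-length peak, 2.13% (1.68% to 2.68%) for Halo-Sox2 peaks without an endogenous or Halo-Sox2D neighbour, and 1.98% (1.54% to 2.55%) for endogenous Sox2 peaks without a Halo-Sox2 or Halo-Sox2D neighbour, all away from gene ends. For protein-coding starts alone, 227 distal peaks or 2.80% (2.47% to 3.19%) lay within 500 bp, against 0.144% of base pairs. The interval for coding starts did not overlap those of the other 3 sets, whose shares were 1.16%, 0.801% and 0.706%. For lncRNA starts the distal peaks' 2.33% (2.03% to 2.69%) lay within the interval of the Halo-Sox2D peaks that shared a place, 1.74% to 3.11%.

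**Figure D1:**
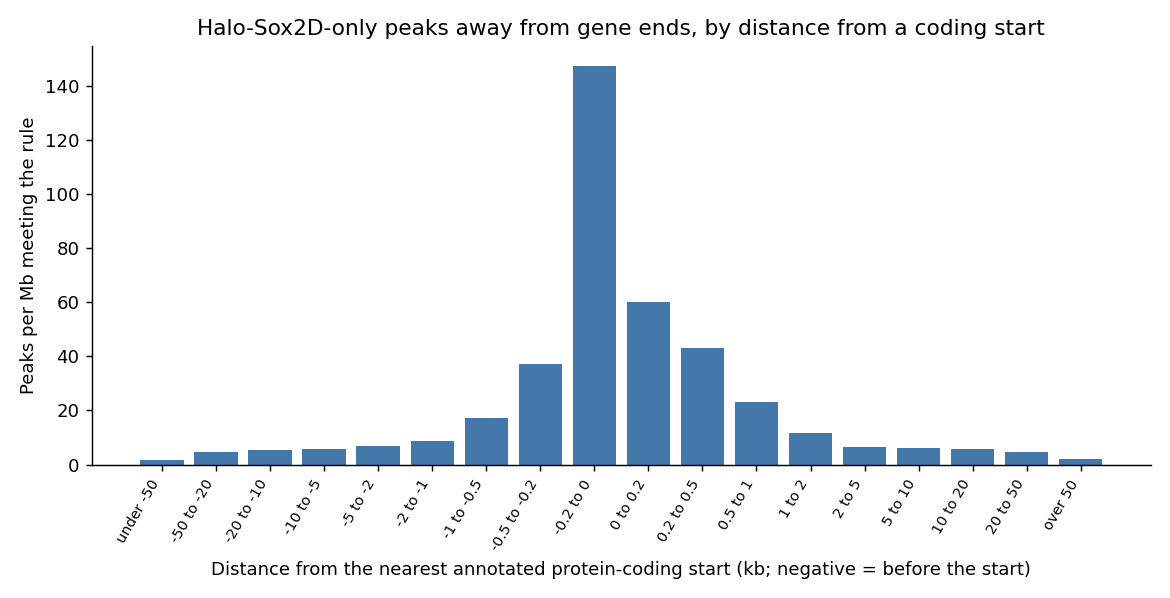
Halo-Sox2D-only distal peaks per Mb of sequence that met the same rule (vertical axis), by signed distance in kb from the nearest annotated protein-coding start (horizontal axis, bins of unequal width). The bar for the 0.2 kb before the start stands at 147 per Mb, and the bars beyond 50 kb at 1.70 and 2.08 per Mb.

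The gathering was narrow, and within 0.2 kb of the start it was denser on the upstream side. Beyond 0.2 kb and up to 2 kb the downstream side was the denser one. The 0.2 kb before a protein-coding start held 104 distal peaks in 0.706 Mb, which is 147 per Mb, and the 0.2 kb after it held 45, which is 60.02 per Mb. Density was 37.1 per Mb at 0.2 to 0.5 kb before the start and 43.0 per Mb at 0.2 to 0.5 kb after it. It was 8.75 per Mb at 1 to 2 kb before the start and 11.5 per Mb at 1 to 2 kb after it, as the plot of peaks by distance from a coding start shows. Over both kinds of start, 92 distal peaks lay 0 to 100 bp before the start, 65 lay 100 to 200 bp before it and 56 lay 0 to 100 bp after it, while the ranges at 400 to 500 bp held 17 before and 24 after. In all, 235 of the 416 lay before the start and 181 after it.

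Distal peaks lay inside genes more often than the sequence open to them. Of the 8422 peaks, 4525 or 53.7% (52.7% to 54.8%) lay inside a protein-coding gene, against 38.9% of the base pairs that met the rule. The share was 43.4% (41.2% to 45.6%) for Halo-Sox2D peaks that shared a place, 47.2% (45.5% to 48.8%) for Halo-Sox2 alone and 43.7% (42% to 45.5%) for endogenous Sox2 alone. Inside lncRNA genes the distal peaks had 11.9% (11.3% to 12.6%), against 8.50% of base pairs, and the other 3 sets had 11.8%, 11.4% and 11.6%. The median distance to the nearest end of a protein-coding gene was 16.6 kb for distal peaks, 22.7 kb for Halo-Sox2D peaks that shared a place, 22.1 kb for Halo-Sox2 alone and 22.2 kb for endogenous Sox2 alone. Exons and introns were not told apart.

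**Figure D2:**
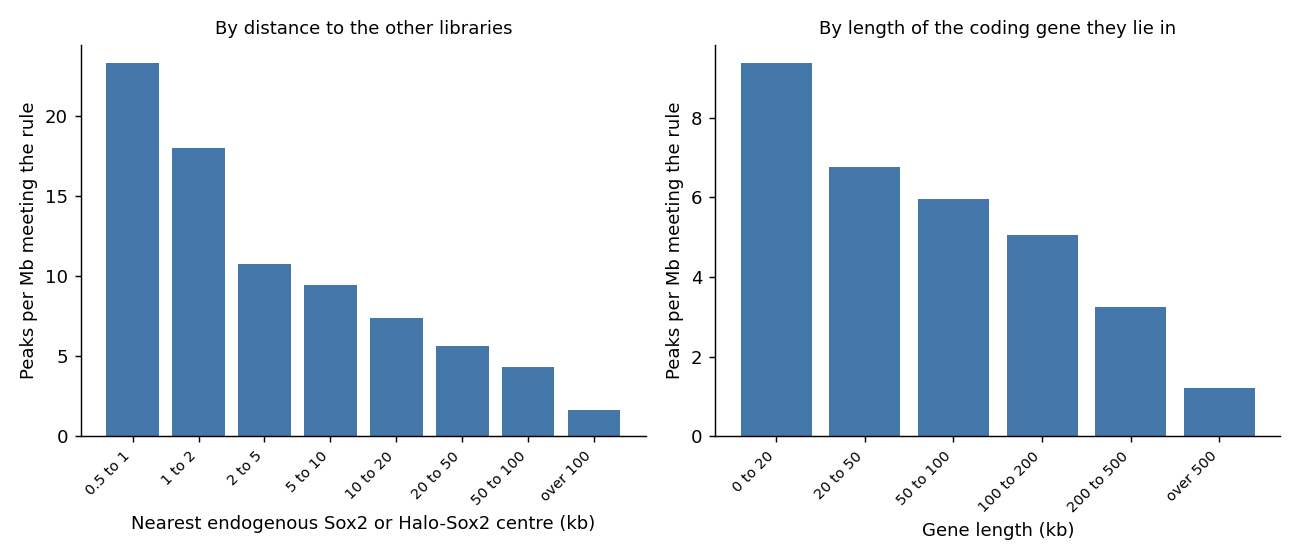
Halo-Sox2D-only distal peaks per Mb of sequence that met the same rule (vertical axes), by distance in kb to the nearest endogenous Sox2 or Halo-Sox2 peak centre (left) and by length in kb of the protein-coding gene they lie in (right). Density was highest in the nearest class, 23.3 per Mb at 0.5 to 1 kb, and in the shortest genes, 9.36 per Mb up to 20 kb.

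Short genes were the denser ones. Genes of up to 20 kb held 9.36 distal peaks per Mb of usable sequence, genes of 50 to 100 kb held 5.94, genes of 200 to 500 kb held 3.24 and genes over 500 kb held 1.22.

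Although no full-length centre lay within 500 bp, distal peaks were denser close to full-length peaks than far from them. Their median distance to the nearest full-length centre was 49.99 kb, against 50.7 kb for Halo-Sox2D-only peaks at gene ends. An endogenous Sox2 or Halo-Sox2 centre lay within 10 kb of 1573 distal peaks, 18.7% (17.9% to 19.5%), against 5.37% of the base pairs that met the rule. Density was 23.3 per Mb at 0.5 to 1 kb from the nearest full-length centre, 18 at 1 to 2 kb, 10.8 at 2 to 5 kb, 7.38 at 10 to 20 kb and 1.65 beyond 100 kb. It fell at each step, as the plot by distance to the other libraries shows. The class beyond 100 kb still held 2634 distal peaks, more than any other class, because it holds most of the sequence. Endogenous Sox2 taken alone was within 10 kb of 11.9% and Halo-Sox2 of 11.4%, against 2.94% and 3.34% of base pairs. The part of gene density in this was not tested.

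Halo-Sox2M, the other altered protein, rarely marked these places. A Halo-Sox2M centre lay within 500 bp of 31 distal peaks, 0.368% (0.259% to 0.522%), against 0.0224% of base pairs. The share was 1.09% for Halo-Sox2D-only peaks at gene ends, 4.58% for Halo-Sox2D peaks that shared a place, 2.09% for Halo-Sox2 alone and 1.20% for endogenous Sox2 alone, and none of those intervals overlapped that of the distal peaks. The rule used Halo-Sox2M only to find dense bins. Without those bins its list on the chromosomes used fell from 1409 to 954 peaks. The closest was the distal peak at chr4:19137722-19137733, 2 bp from a Halo-Sox2M centre and 15.2 kb above Cnbd1. Next came chr7:118976881-118976900 inside Gprc5b, an orphan receptor, at 7 bp. The others of the closest 5 were 2 peaks 77.4 and 77.3 kb below Gm15319 on chromosome 8, at 7.5 and 10.5 bp, and chr4:61572111-61572118, 19.8 kb below the major urinary protein gene Mup17, at 11.5 bp.

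Most distal peaks stood alone. Joined at 500 bp they made 7899 sites, of which 7437 had 1 peak, 405 had 2, 53 had 3 and 4 had 4. Another distal peak lay within 500 bp of 985 of them, 11.7% (11.0% to 12.4%), against 20.01% for Halo-Sox2D-only peaks at gene ends, 43.9% for Halo-Sox2D peaks that shared a place, 10.5% for Halo-Sox2 alone and 33.8% for endogenous Sox2 alone. Within 50 bp the shares were 5.68%, 8.01%, 20.4%, 5.004% and 23.4% in the same order. A longer list has closer neighbours by number alone, and the distal set is the longest of the 5.

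**Figure D3:**
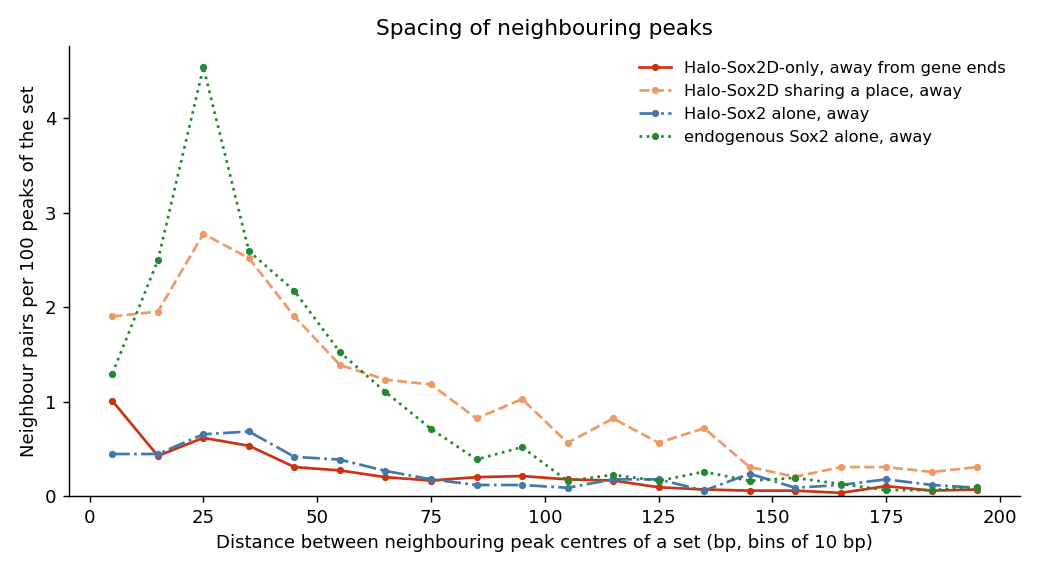
Pairs of neighbouring peaks per 100 peaks of a set (vertical axis) by the distance between their centres in bins of 10 bp (horizontal axis), for the Halo-Sox2D-only distal peaks and 3 other sets away from gene ends. Endogenous Sox2 alone reached 4.54 pairs per 100 peaks at 20 to 30 bp, where the distal peaks had 0.617.

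The spacing of neighbours also differed. Distal peaks had 0.617 pairs per 100 peaks at 20 to 30 bp, against 2.78 for Halo-Sox2D peaks that shared a place, 0.655 for Halo-Sox2 alone and 4.54 for endogenous Sox2 alone. Their own highest value, 1.01 pairs per 100 peaks, was at up to 10 bp. These were 85 peaks that overlapped the peak before them, and all 85 shared an edge with it, as the Gm46609 calls printed above do. Such pairs are nested calls. Peak width, with a median of 11 bp and no peak over 20 bp, was the same in all 4 lists.

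The sites with most distal peaks were short stretches. A site with 4 peaks spanned 130 bp at chr5:103705428-103705557 inside Aff1, a scaffold of transcription elongation complexes. Another lay at chr14:40956318-40956717 inside Tspan14, a tetraspanin, and its 4 calls include a nested pair. At Aff1 the nearest full-length centre was 19.1 kb away, and at Tspan14 it was 91.3 kb away.

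Sites with 3 peaks followed. One spanned 654 bp at chr2:152726287-152726940, 9.64 kb below Id1, an inhibitor of basic helix-loop-helix factors and a target of BMP signalling. Others lay inside Ankrd35 and 86.0 kb below Bcas1. The site 61.3 kb above Shb, an adaptor protein, spanned 33 bp, and its 3 calls include a nested pair. It lay 0.623 kb from an endogenous Sox2 centre, close to the 500 bp rule.

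By gene, 9456 of 21883 protein-coding genes, 43.2%, had a distal peak in the gene or within 50 kb of it, and 3064 genes, 14.0%, had one inside. The share with a peak in the window went with gene length. It was 37.8% for genes of up to 20 kb, 51.9% for genes of 50 to 100 kb, 56.0% for genes of 200 to 500 kb and 54.9% for genes over 500 kb. The gene lists below were read against 43.2% and against the density of 4.35 distal peaks per Mb over all coding gene windows. No list was tested.

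**Figure D4:**
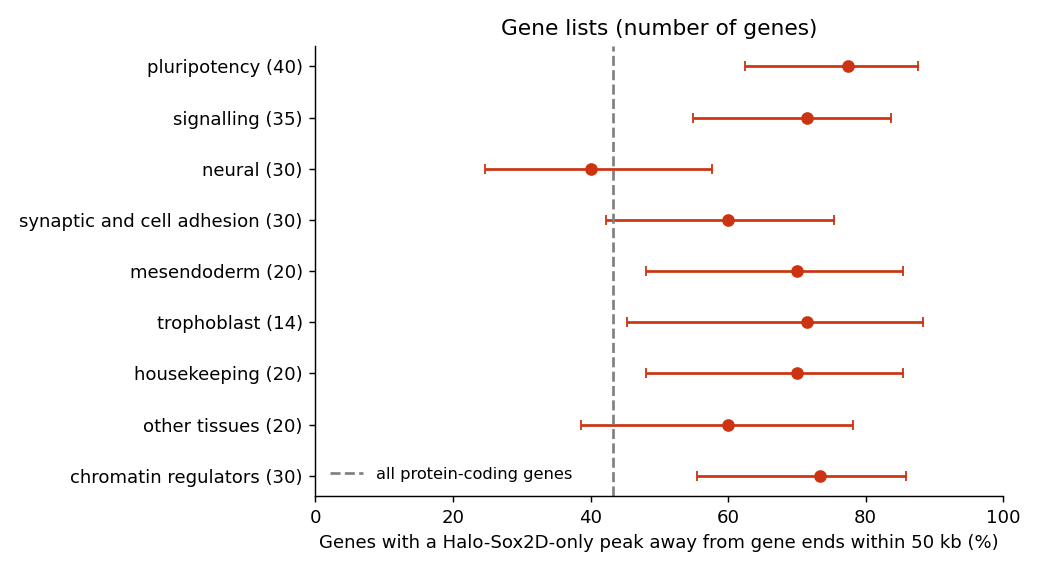
Share of the genes of each list that had a Halo-Sox2D-only distal peak in the gene or within 50 kb (horizontal axis, %), with 95% Wilson intervals as bars and the number of genes in brackets. The dashed line is the 43.2% of all protein-coding genes, and the pluripotency list has the highest share, 77.5%.

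Pluripotency genes were often near distal peaks. Of 40 such genes 31 had one in the window, 77.5% (62.5% to 87.7%), at 15.5 peaks per Mb and a median of 1.5 per gene, against a median of 0 over all coding genes. The same windows were rich in full-length peaks, with an endogenous Sox2 peak at 36 genes and a Halo-Sox2 peak at 28, and only 1 of the 40 genes had a distal peak and neither full-length peak. Genes without a distal peak included Klf5, Nr0b1, Prdm14, Rif1, Sall1, Tcl1, Tet1 and Zfp42. Narrower windows of 20 kb gave 26 genes, against 28.5% of all coding genes.

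The Sox2 gene had 1 distal peak, at chr3:34648324-34648332, 1.67 kb below the gene. It lay 1.695 kb from a Halo-Sox2 centre and 1.195 kb from an endogenous Sox2 centre. Pou5f1, which codes for Oct4, had 3, at chr17:35485911-35485922 20.1 kb below the gene, chr17:35509506-35509523 inside it and chr17:35547727-35547736 37.0 kb above it, beside 3 Halo-Sox2 and 10 endogenous Sox2 peaks in the window. Nanog, a homeobox gene of the same network, had 5 distal peaks, beside 3 Halo-Sox2 and 4 endogenous Sox2 peaks. A nested pair of the 5 lay 1.48 kb below Nanog at chr6:122706002-122706021, and the other 3 lay 37.9 kb below, 5.54 kb above and 29.0 kb above. The windows of all 3 genes thus held full-length peaks at other positions.

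Esrrb, an orphan nuclear receptor of the pluripotency network, had 6 distal peaks in its window, 4 of them inside the gene, with 2 Halo-Sox2 and 13 endogenous Sox2 peaks there. The inside peaks lay between 72.5 and 143 kb from the lower end of the gene. Etv5, an ETS factor downstream of FGF signalling, had 6, all inside, with 4 Halo-Sox2 and 3 endogenous Sox2 peaks in the window. Sall4, a zinc finger factor, had 5, with 2 Halo-Sox2 and 1 endogenous Sox2 peak. Trim71, an RNA-binding protein of early development, had all its 5 inside the gene, with 0 Halo-Sox2 and 4 endogenous Sox2 peaks in the window.

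Signalling genes had a similar share, 25 of 35 or 71.4% (54.9% to 83.7%), at 14.3 peaks per Mb. Tcf7l1, the Wnt-pathway repressor, had 7, of which 6 were inside, with 5 Halo-Sox2 and 6 endogenous Sox2 peaks in the window. The FGF feedback inhibitors Spry2 and Spry4 had 5 each, Spry2 beside 11 Halo-Sox2 and 17 endogenous Sox2 peaks, Spry4 beside 4 and 5. Smad7, an inhibitor of TGF-beta signalling, had 5, with 0 Halo-Sox2 and 6 endogenous Sox2 peaks. Id1 had 5, all below the gene, with 1 Halo-Sox2 and 0 endogenous Sox2 peaks.

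Some list genes had distal peaks and no full-length peak at all in the window, as had 17.8% of all coding genes. The 1 pluripotency gene of this kind was Tdgf1, which codes for a co-receptor of Nodal, with 3. Among signalling genes these included Bmpr1a, a BMP receptor, with 4, and Ctnnb1, which codes for beta-catenin, with 3. At Bmpr1a the distal peak 47.5 kb below the gene had full-length centres just outside the window. They lay 3.39 kb (Halo-Sox2) and 3.48 kb (endogenous Sox2) from that peak. Of the chromatin regulators, Wdr5, a core subunit of histone H3 lysine methyltransferase complexes, had 5. The BAF remodelling subunits Arid1a and Smarcc1 had 4 and 3. Chromatin regulators as a list had a distal peak at 22 of 30 genes, 73.3% (55.6% to 85.8%), and 5 of the 30 had a distal peak and no full-length peak. Cbx7, a Polycomb subunit, had 7 distal peaks, with 2 Halo-Sox2 and 2 endogenous Sox2 peaks.

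Lists with no tie to pluripotency also had shares above that of all genes, although the interval of the other-tissue list includes it. Housekeeping genes had a distal peak at 14 of 20, 70% (48.1% to 85.5%), at 13.8 per Mb, close to the pluripotency density, and 7 of them, 35%, had an endogenous Sox2 peak, against 27.3% of all coding genes. Eef1a1, a translation elongation factor, had 3 with no full-length peak. Genes of other tissues had 12 of 20, 60% (38.7% to 78.1%), and 9 of the 20 had a distal peak and no full-length peak. Krt14, a keratin of basal skin cells, had 5, spread from 34.0 kb below to 46.9 kb above the gene, with no full-length peak.

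Lineage genes were mixed. Mesendoderm genes had 14 of 20, 70% (48.1% to 85.5%), and 6 of the 20 had a distal peak and no full-length peak, among them Gsc, a homeobox gene of the organiser, with 3 distal peaks. Trophoblast genes had 10 of 14, 71.4% (45.4% to 88.3%), at 6.58 per Mb. Neural genes had 12 of 30, 40% (24.6% to 57.7%), at 4.85 per Mb, near the values of all coding genes. Synaptic and cell adhesion genes had 18 of 30, 60% (42.3% to 75.4%), but only 0.916 per Mb, in genes with a median length of 1137 kb. Slit3, an axon guidance ligand, had 6, and Fhit, a nucleotide hydrolase gene at a fragile site, had 3 with no full-length peak.

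The 10 genes with most distal peaks inside were long, and all of them held Halo-Sox2 and endogenous Sox2 peaks inside too. The highest count was 14, shared by the overlapping gene models Gm37013, Gm38666 and Gm38667 of chromosome 18, which also cover Pcdhgc3, Pcdhgc4 and Pcdhgc5 of the gamma-protocadherin cluster, so these are the same peaks counted more than once. Pcdhgc5 alone, 22.3 kb long, had 5, the highest density of any gene over 20 kb at 0.224 per kb, and Pcdhgc4 and Pcdhgc3 held 5 each at 0.187 and 0.141 per kb. Arhgap26, a GTPase-activating protein, had 13 distal peaks inside. Gse1 had 11, Btbd11 and Pitpnc1 had 10 each, and Agap1 had 8. Msi2, an RNA-binding protein of stem and progenitor cells, had 9, and so did Tsc22d1, which at 92.8 kb is far shorter than Msi2 at 379 kb.

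Of the other genes over 20 kb with high density, Ankrd35 had 4 distal peaks or 0.191 per kb and Kdm6b, a demethylase of histone H3 lysine marks set by Polycomb, had 4 or 0.183 per kb. Limk1, a kinase of the actin regulator cofilin, had 5 or 0.148 per kb. Pnpla6, Apc2, Ywhab and Fbxl19 followed with 0.138, 0.135, 0.128 and 0.117 per kb. The 100-kb bins with most distal peaks held 9 each, one on chromosome 5 at 134600001 to 134700000 over Lat2, Eif4h and Limk1, the other on chromosome 14 at 75800001 to 75900000 over Tpt1 and Gtf2f2. Both are under the limit of 15 peaks that removed dense bins.

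Transfer RNA genes, which RNA polymerase III transcribes, were another place of gathering. Of 8422 distal peaks 33, or 0.392% (0.279% to 0.550%), lay in or within 100 bp of a tRNA gene, against 0.00331% of base pairs. The share was 0.771% (0.468% to 1.27%) for Halo-Sox2D peaks that shared a place, 0.715% (0.481% to 1.06%) for Halo-Sox2 alone and 0.324% (0.176% to 0.596%) for endogenous Sox2 alone, and all these intervals overlap that of the distal peaks. The 33 peaks marked 31 of 408 tRNA genes, 10 of them on chromosome 13, and 10 peaks lay inside the gene itself. n-TWcca7 on chromosome 11 and n-TYgta10 on chromosome 14 had 2 each, and n-TAagc7, n-TAtgc9 and n-TEttc6 were among those with 1. A Halo-Sox2M peak was at 1 of the 31 genes, against 27 of all 408 tRNA genes. Of the 408, 359 lay away from coding gene ends. tRNA genes exist in near-identical copies, so a peak may have been placed on the wrong copy, and how the authors treated reads with several matches is not given in the sources used here.

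Counts at other small RNA genes were low. The share of base pairs these genes cover was not counted, so low counts do not show that distal peaks were scarce there. Distal peaks lay at 2 of 1228 miRNA genes, Mir1968 and Mir7655, and at 2 of 1340 snoRNA genes, Gm22379 and Gm25502. They lay at 2 of 1004 snRNA genes and at 0 of 63 rRNA genes. The snRNA genes held 3 of 8422 distal peaks, against 8 of 1945 Halo-Sox2D peaks that shared a place. Away from gene ends they also held 11 of 3357 peaks of Halo-Sox2 alone and 7 of 3084 of endogenous Sox2 alone. The snRNA gene Gm25541, at chr2:27539805-27539930, had 2 peaks, which are the pair 3.34 and 3.39 kb above Wdr5, and Gm26444 had 1. Among 12727 lncRNA genes 877 had 1043 distal peaks in the gene or within 100 bp, which is 12.4% of the distal peaks. 4732471J01Rik had 6, Gm31391, Gm31829 and Gm36507 had 4 each, and 1700108F19Rik had 3. Gm31391 overlaps Tcf7l1. Pseudogenes had 71 distal peaks at 65 of 9944 genes, with 4 at Vmn2r-ps16, 2 each at Gm18827, Gm2792 and Gm5540, and 1 at Akp-ps1.

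Across chromosomes the distal peaks followed gene density, with the X chromosome apart. Over the 19 autosomes density ran between 2.51 per Mb on chromosome 3 and 5.72 per Mb on chromosome 11, with a median of 3.38. It went with protein-coding genes per Mb at a Pearson r of 0.771 and a Spearman rho of 0.786 over these 19 autosomes, as a description, since all points come from 1 library. These densities are per Mb of sequence that met the rule. Per Mb of whole chromosome, measured alike for 3 sets, Pearson's r was 0.754 for distal peaks, 0.496 for Halo-Sox2 alone and 0.595 for endogenous Sox2 alone. Chromosome X held 66 distal peaks. On the whole-chromosome scale that is 0.387 per Mb, against an autosomal median of 3.27. Halo-Sox2 alone had 0.434 per Mb on X against an autosomal median of 1.29, and endogenous Sox2 alone 0.311 against 1.24, so X was low in these sets as well. As a share of peaks, X held 0.784% (0.616% to 0.996%) of the distal peaks. It held 0.938% (0.631% to 1.39%) of Halo-Sox2D-only peaks at gene ends and 0.823% (0.507% to 1.33%) of Halo-Sox2D peaks that shared a place. The low X share was thus common to the Halo-Sox2D sets. It was 2.20% for Halo-Sox2 alone and 1.72% for endogenous Sox2 alone. How many copies of X the cells carried, and how well reads mapped there, was not tested.

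**Figure D5:**
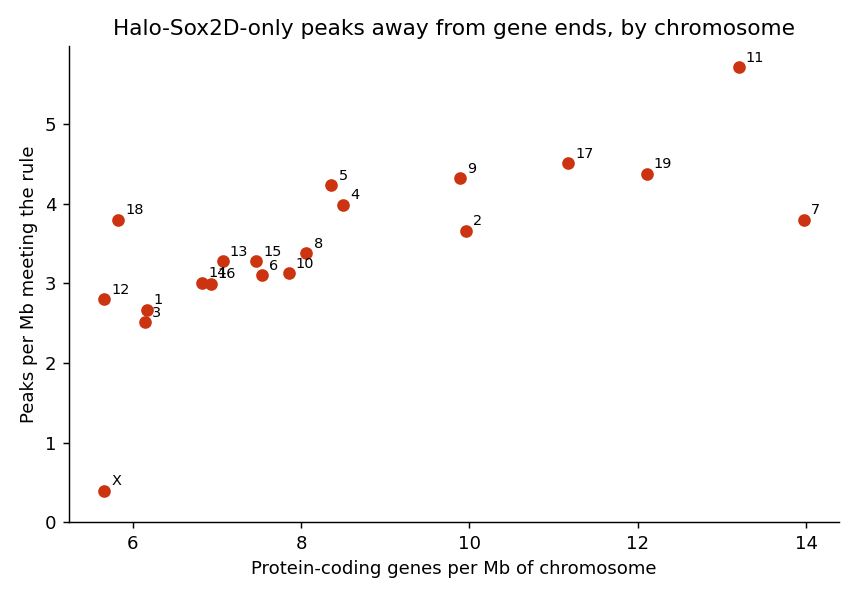
Halo-Sox2D-only distal peaks per Mb of sequence that met the same rule (vertical axis) against protein-coding genes per Mb (horizontal axis), 1 point per chromosome with its name. Chromosome 11 is highest at 5.72 per Mb and chromosome X lowest at 0.395 per Mb.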

How the data were processed

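ChIP-exo was run on D3 mouse embryonic stem cells, 1 library each for Halo-Sox2D, Halo-Sox2M, Halo-Sox2 and endogenous Sox2. Bowtie2 and the mm10 build are named in the submitters' processing notes. Which program called the peaks, at which threshold and after which read filters, is not given in the sources used here. For each library the authors deposited a list of chromosome, start and end per peak with no score, so depth is unknown.

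Positions were compared from peak centres (Python 3.11.15, numpy 2.4.6, pandas 2.3.3), with genes and start sequences from RefSeq GRCm38.p6, whose primary chromosomes share the coordinates of mm10. Wilson intervals came from scipy 1.17.1. The share of base pairs meeting the same rule, on a grid of 10 bp, was the background. The comparison sets away from gene ends were built by the same 500 bp, 1 kb and dense-bin rules. The code was tested on simulated data.

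The peak set and gene lists were chosen with earlier results of these data known. Named genes were Sox2, Pou5f1 and Nanog, the 15 list genes with most peaks in the window, the 10 with most peaks and no full-length peak, the 10 coding genes with most peaks inside, the 10 densest over 20 kb, the 10 largest sites, up to 5 genes of each other class and the 5 peaks nearest to a Halo-Sox2M centre. Some genes that met this rule are not reported here. The pluripotency genes without a peak were named after their values were seen, and so were the genes with printed sequences and the genes of the densest bins. Planned motif counts around every peak were not run, as no genome sequence was used here. Counts in start windows, chosen after seeing the data, took their place, and no start window on chromosome 18 was used. Alternatives covered the shared distance, the gene end distance, the dense-bin limit, joined sites and the gene window.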

Additional observations from a re-analysis of the deposited data

How the results depend on the processing

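Of 45 alternative values 38 stayed close to those reported, meaning within 1.5 times for counts and within the 95% interval of the reported value for shares. The limit for counts is wide, since 31 of 40 genes could not rise by 1.5 times, and all 7 values that moved were shares. The share inside protein-coding genes was 52.6% with gene ends drawn at 2 kb and 55.8% with the ends of all annotated genes removed, against 53.7% as reported. The share with another distal peak within 500 bp was 9.78% with bins of 5 or more peaks left out, and 5.85% of joined sites had more than 1 peak, against 11.7% as reported. The share with a full-length centre within 10 kb was 19.99% with a shared distance of 250 bp, 16.9% with 1000 bp and 14.7% with bins of 5 or more peaks left out, against 18.7% as reported. A shorter or longer shared distance changes which peaks are kept by construction, and leaving out filled bins removes peaks near others. The number of distal peaks ran between 7052 and 8560. Pluripotency genes with a distal peak numbered 25 of 40 (31 as reported) with bins of 5 or more peaks left out and 25 by nearest coding gene. They numbered 26 with windows of 20 kb and 35 with windows of 100 kb, and between 29 and 31 under the other alternatives. Of all coding genes, 28.5% had a distal peak with windows of 20 kb, 43.2% with 50 kb and 57.9% with 100 kb. Under the other alternatives the share of all coding genes was not counted. The peak lists carry no score, so no stricter threshold could be set. No paired analysis was possible because each protein has 1 library.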
